A study of Homo sapiens with 10 samples.

Results

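Several proteins hold p53 back, and some of their genes are themselves switched on by p53. Followed here were 6 such negative regulators, MDM2, MDM4, PPM1D, CCNG1, RFWD2 and RCHY1. They were chosen by symbol, and all 6 of 6 symbols were found in both tables, among 11258 transcripts that the RNA-Seq and Ribo-Seq tables share. The cells were BJ fibroblasts, a human foreskin line immortalised by expression of telomerase (hTERT). An untreated control, called 0 h, was compared with nutlin-3a given for 2, 4, 6 and 19 h, with 1 library per group and assay and 10 libraries in all. Nutlin-3a is a small molecule that occupies the pocket of MDM2 that binds p53. RNA-Seq measured poly(A) RNA, and Ribo-Seq measured the fragments that ribosomes protect, from cells given cycloheximide before lysis. All groups share the telomerase transgene and the single cell line, so the data hold 1 genotype. Since every group was 1 library, no difference has a replicate check, and the errors given are counting errors.

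MDM2 is the main ubiquitin ligase of p53. It binds the transactivation domain of p53 and marks the protein for degradation, and its own gene is a direct p53 target, which closes a negative loop. MDM4 (also MDMX) is a relative of MDM2 that represses p53 transactivation and forms a heterodimer with MDM2. PPM1D encodes WIP1, a phosphatase that removes the activating phosphates of p53 and of the kinases upstream of it. CCNG1 encodes cyclin G1, which brings phosphatase 2A to MDM2, and RFWD2 (COP1) and RCHY1 (PIRH2) encode further ubiquitin ligases that act on p53.

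The sequence before the transcription start is shown for MDM2, PPM1D and CCNG1, the members whose RNA was called higher in the results that follow. The human MDM2 gene is known to have a constitutive promoter before its first exon and a p53-responsive promoter inside its first intron, so both are given. Sequences are from RefSeq on GRCh38.p14, the 250 bases before the annotated start, read 5′ to 3′ on the strand of the gene. Capitals mark matches to the consensus p53 site (a pair of p53 decamers, each with at most 1 mismatch and with its core C and G kept, 0 to 13 bases apart) and to the cyclic AMP response element TGACGTCA.
MDM2, first start (chr12:68807922-68808171, plus strand): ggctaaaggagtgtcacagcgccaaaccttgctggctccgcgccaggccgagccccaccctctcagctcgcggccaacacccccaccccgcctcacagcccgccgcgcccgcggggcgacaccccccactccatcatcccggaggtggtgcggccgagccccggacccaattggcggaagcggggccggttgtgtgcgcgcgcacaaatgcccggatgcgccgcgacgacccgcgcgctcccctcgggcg
MDM2, internal start (chr12:68808767-68809016, plus strand): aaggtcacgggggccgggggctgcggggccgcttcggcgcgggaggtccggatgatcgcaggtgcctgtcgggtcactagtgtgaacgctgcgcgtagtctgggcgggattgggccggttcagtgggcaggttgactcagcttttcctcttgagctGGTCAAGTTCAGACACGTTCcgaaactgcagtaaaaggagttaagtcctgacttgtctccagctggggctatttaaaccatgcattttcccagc
PPM1D (chr17:60599943-60600192, plus strand): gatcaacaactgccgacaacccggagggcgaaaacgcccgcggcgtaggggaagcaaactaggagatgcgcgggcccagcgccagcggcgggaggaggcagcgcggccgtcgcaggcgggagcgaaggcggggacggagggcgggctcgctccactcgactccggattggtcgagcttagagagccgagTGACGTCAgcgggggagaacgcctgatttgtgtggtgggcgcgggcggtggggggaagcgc
CCNG1 (chr5:163437321-163437570, plus strand): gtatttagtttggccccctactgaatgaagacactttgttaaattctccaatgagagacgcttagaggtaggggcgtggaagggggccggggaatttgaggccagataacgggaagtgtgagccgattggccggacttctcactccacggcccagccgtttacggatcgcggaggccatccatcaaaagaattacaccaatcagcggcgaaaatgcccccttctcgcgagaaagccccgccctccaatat

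The internal start of MDM2 lies 845 bases downstream of the first, and the matched p53 site lies at positions -94 to -75 relative to it. Of 35116 windows of the same length, 1.57% held such a p53 site and 1.65% held TGACGTCA. All 6 members had RefSeq windows, 13 in all, RFWD2 under its current symbol COP1. The p53 match was found only in the 2 overlapping windows of the internal MDM2 starts, and TGACGTCA only in the PPM1D window. A p53 site further from the consensus than the stated rule allows stays in lower case, in the MDM2 windows too. Of the 15 reference p53 target genes with a window, 0 held a match, and the absence of a match in a member says only that these letters are not in its window. No measurement of binding was made here, and the tables give 1 isoform per gene, so RNA from the first and the internal MDM2 promoter was not separated.

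Levels are given in FPKM, reads per transcript length and sequencing depth, and levels of different genes are compared in RNA-Seq. Ribo-Seq values were scaled to whole transcripts, not to the coding part, so a Ribo-Seq level is set against other times of the same gene. Intervals of a level are exact 95% Poisson intervals on the reads behind it. As recovered from the spacing of the deposited values, the RNA-Seq libraries held 23845559 to 27554286 reads and the Ribo-Seq libraries 7744899 (19 h) to 14460726 (4 h). Genes counted as tested when both assays had a library with 5 FPKM or more, a condition met by 7015 genes, 4 of the 6 members among them. MDM4 reached 6.19 FPKM in RNA-Seq but only 1.32 in Ribo-Seq, and RCHY1 reached 4.05 and 2.42, so neither was tested, while RFWD2, at 13.0 and 6.78 FPKM, and PPM1D, at 14.5 and 11.0, were the tested members nearest to the threshold. The 10 fibroblast markers examined, collagens among them, were all at or above 1 FPKM in both controls, and their summed RNA-Seq level ran from 9365 to 12630 FPKM. Of the markers of other cells, CDH1 (epithelial), VWF (endothelial) and PTPRC (immune) were below 1 FPKM in every RNA-Seq library, while the keratins KRT8 and KRT18 and the lysosomal CD68 were above it, with sums of 243 to 327 FPKM over 3 of 5 epithelial markers in the table and 61.7 to 87.1 over 3 of 3 immune ones. In bulk libraries a change in the share of cells and a change per cell cannot be told apart.

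**Figure D1:**
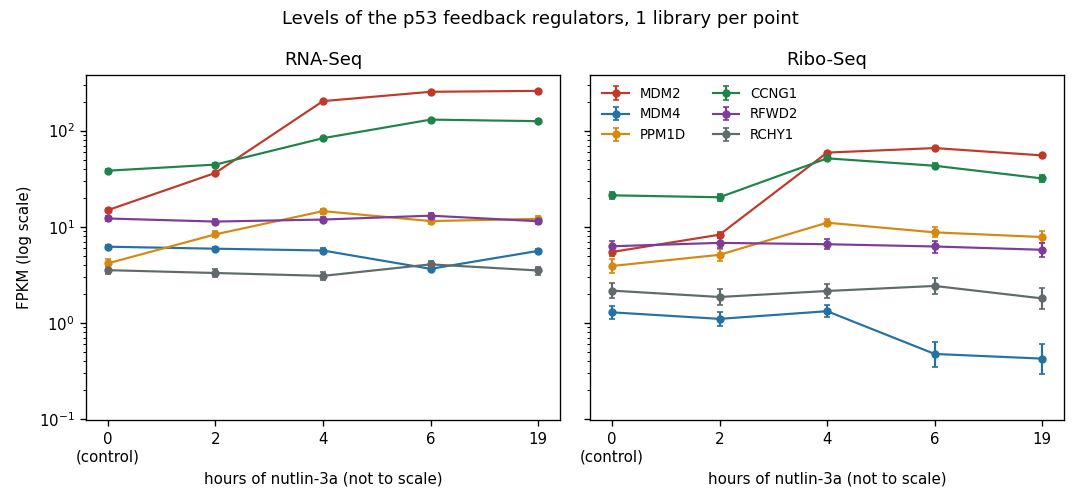
FPKM of the 6 members (log axis) in RNA-Seq (left) and Ribo-Seq (right) at 0 h (control), 2, 4, 6 and 19 h of nutlin-3a; each point is 1 library and bars are exact 95% Poisson intervals. MDM2 climbs from 14.9 to 259 FPKM in RNA-Seq and passes CCNG1, while PPM1D and CCNG1 climb less. RFWD2 and RCHY1 run nearly flat, and MDM4 is lowest at 6 h in RNA-Seq and at 6 and 19 h in Ribo-Seq.

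MDM2 rose most of the members. Its RNA was at 14.9 FPKM in the control (14.3 to 15.4, 2615 reads), then 36.3 (2 h), 203 (4 h), 254 (6 h) and 259 (19 h; 257 to 262, 49868 reads). Its Ribo-Seq level was 5.45 FPKM in the control (4.97 to 5.96, 473 reads), then 8.25 (2 h), 59.0 (4 h), 65.8 (6 h) and 55.2 (19 h; 53.3 to 57.2, 3156 reads). All 4 treated libraries were above the control in each assay, with no overlap of the counting intervals. In order of time, MDM2 RNA was 2.44, 13.7, 17.1 and 17.5 times that of the control. In the ranking of the tested genes by RNA level, MDM2 moved from above 36.6% of them in the control to above 97.3% at 19 h.

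Most of this rise fell between 2 and 4 h, and RNA hardly differed between 6 and 19 h. From 2 to 4 h MDM2 RNA increased 5.59-fold, 2.48 on the log2 scale with a counting SE of 0.02, and its ribosome density increased 7.16-fold, 2.84 on the log2 scale with an SE of 0.06. The step from 4 to 6 h was a further 1.25-fold in RNA, and that from 6 to 19 h was 1.02-fold. Ribosome density instead was 0.839-fold at 19 h relative to 6 h, a log2 difference of -0.25 (SE 0.03).

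PPM1D rose early and to a lower plateau. Its RNA was at 4.15 FPKM in the control (3.70 to 4.64, 313 reads), then 8.32 (2 h), 14.5 (4 h), 11.4 (6 h) and 12.1 (19 h). Its Ribo-Seq level was 3.90 FPKM in the control (145 reads), then 5.09 (2 h), 11.0 (4 h), 8.73 (6 h) and 7.80 (19 h). All 4 treated libraries lay above the control in both assays, and the counting intervals overlapped only in Ribo-Seq at 2 h, where the control interval reached 4.59 FPKM and that of 2 h began at 4.40. The peak of 4 h was 3.50-fold in RNA and 2.82-fold in ribosome density. From 4 to 6 h PPM1D RNA went to 0.788-fold (log2 -0.34, SE 0.06), the time at which MDM2 and CCNG1 RNA went on upward.

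CCNG1 was the most abundant of the 6 in RNA-Seq before treatment. Its RNA was called higher from 4 h on, and its ribosome density at 4 h only. Its RNA was at 38.3 FPKM in the control (36.7 to 39.9, 2243 reads), then 44.3 (2 h; 42.7 to 45.9), 83.4 (4 h), 130.2 (6 h) and 125 (19 h). Its Ribo-Seq level was 21.2 FPKM in the control (613 reads), then 20.2 (2 h), 51.5 (4 h), 43.1 (6 h) and 31.8 (19 h; 605 reads). In RNA-Seq the 2 h library was above the control beyond the counting intervals, at a log2 difference of 0.21 against a cut-off of 0.23. The Ribo-Seq libraries of 0 and 2 h overlapped in their intervals, and the later 3 lay above both. RNA went up 1.56-fold from 4 to 6 h while ribosome density went to 0.837-fold, so the assays moved in opposite directions in that step, by 0.64 (SE 0.03) and -0.26 (SE 0.06) on the log2 scale. From 6 to 19 h RNA was at 0.963-fold and ribosome density at 0.738-fold.

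The order of the levels changed with treatment. In the control RNA-Seq library CCNG1 stood first, followed by MDM2, RFWD2, MDM4, PPM1D and RCHY1, and the counting intervals of PPM1D (3.70 to 4.64) and RCHY1 (3.19 to 3.89) overlapped. MDM2 RNA was 0.388 times that of CCNG1 in the control and 2.07 times at 19 h. Over the same interval the ratio of MDM2 to MDM4 went from 2.40 to 46.4 in RNA-Seq and from 4.25 to 131 in Ribo-Seq, where the length scaling of both genes was the same at each time.

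MDM4 was not above its control at any time beyond the counting intervals. Its RNA was at 6.19 FPKM in the control (5.88 to 6.51, 1486 reads), then 5.90 (2 h), 5.65 (4 h), 3.64 (6 h; 3.42 to 3.87, 1010 reads) and 5.59 (19 h). Its Ribo-Seq level was 1.28 FPKM in the control (152 reads), then 1.10 (2 h), 1.32 (4 h), 0.473 (6 h; 48 reads) and 0.423 (19 h; 33 reads). In RNA the 6 h library stood below the other 4, whose intervals overlapped, and in Ribo-Seq the 6 and 19 h libraries stood below the other 3. Without a floor on low values the ribosome density at 6 h was lower than the control by a log2 difference of -1.44 (95% counting interval -1.91 to -0.97), and that at 19 h by -1.60 (-2.14 to -1.06). With the floor of 1 FPKM that the study used, both differences are -0.36. MDM4 RNA differed from the control by -0.77 at 6 h (-0.88 to -0.65) and by -0.15 at 19 h (-0.25 to -0.04). The unfloored TE difference at 19 h was then -1.46 (-2.01 to -0.90), while with the floor it was -0.21. MDM4 was under the filter and these differences were not called. With no filter on low values it was not called at any time either, on floored values.

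RFWD2 and RCHY1, both ubiquitin ligases of p53, were close to their control level throughout. RFWD2 RNA was at 12.2, 11.3, 11.9, 13.0 and 11.4 FPKM at 0, 2, 4, 6 and 19 h, and its Ribo-Seq level was 6.25, 6.78, 6.57, 6.22 and 5.75. RCHY1 RNA was at 3.53, 3.29, 3.07, 4.05 and 3.50 FPKM in the same order, and its Ribo-Seq level was 2.16, 1.85, 2.14, 2.42 and 1.79. For RFWD2 the counting intervals of all treated libraries overlapped that of the control. Its RNA ranged from 0.929-fold to 1.07-fold and its ribosome density from 0.919-fold to 1.09-fold of the control. At 19 h the 95% counting interval of its log2 difference was -0.23 to 0.04 in RNA and -0.43 to 0.19 in ribosome density. For RCHY1 these intervals were -0.21 to 0.19 and -0.71 to 0.17, on 65 Ribo-Seq reads at 19 h, so a moderate fall in ribosome density was not detectable at this depth.

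To call a change, a gene's log2 difference from the control had to exceed 1 3/4 SDs of the differences of the 200 tested genes nearest to it in level, modelled on the level-dependent cut-off that the study's methods describe. Values were floored at 1 FPKM. PPM1D was under 5 FPKM in both controls and passed the filter through its treated libraries, while MDM4 and RCHY1 did not pass, so the counts of tested members that follow describe these genes and support nothing about the group. In RNA, 2 of 4 tested members were called higher at 2 h (MDM2 and PPM1D), where 3.55% of all tested genes were. At 4 h and at 6 h 3 of 4 were called higher (MDM2, PPM1D and CCNG1), against 3.66% and 1.72% of all tested genes, and at 19 h 2 of 4 (MDM2 and CCNG1), against 1.68%. No tested member was called lower in RNA at any time, while 0.998%, 3.34%, 4.70% and 5.02% of all tested genes were at 2, 4, 6 and 19 h. PPM1D at 19 h, at a log2 difference of 1.54 (SE 0.09), was above that of 99.1% of the tested genes but short of its cut-off of 2.06, and it was called with a floor of 5 FPKM or with a plain 2-fold threshold, which 2.49% of all tested genes passed upward.

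Fewer calls of the members were made in ribosome density. At 2 h 0 of 4 tested members were called higher, against 4.99% of all tested genes, and at 4 h 3 of 4 were (MDM2, PPM1D and CCNG1), against 6.49%. At 6 h and at 19 h only MDM2 was called, 1 of 4 at each time, against 2.55% and 1.92%. No tested member was called lower in ribosome density, while 1.57%, 1.31%, 4.40% and 5.43% of all tested genes were at 2, 4, 6 and 19 h. MDM2 ribosome density at 2 h was 1.51-fold (log2 0.60, SE 0.09), short of its cut-off. At 6 and 19 h PPM1D stood at 2.24-fold and 2.00-fold and CCNG1 at 2.03-fold and 1.50-fold. A plain 2-fold threshold called 3 of 4 members higher at 6 h and 2 of 4 at 19 h, against 5.26% and 6.22% of all tested genes.

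**Figure D2:**
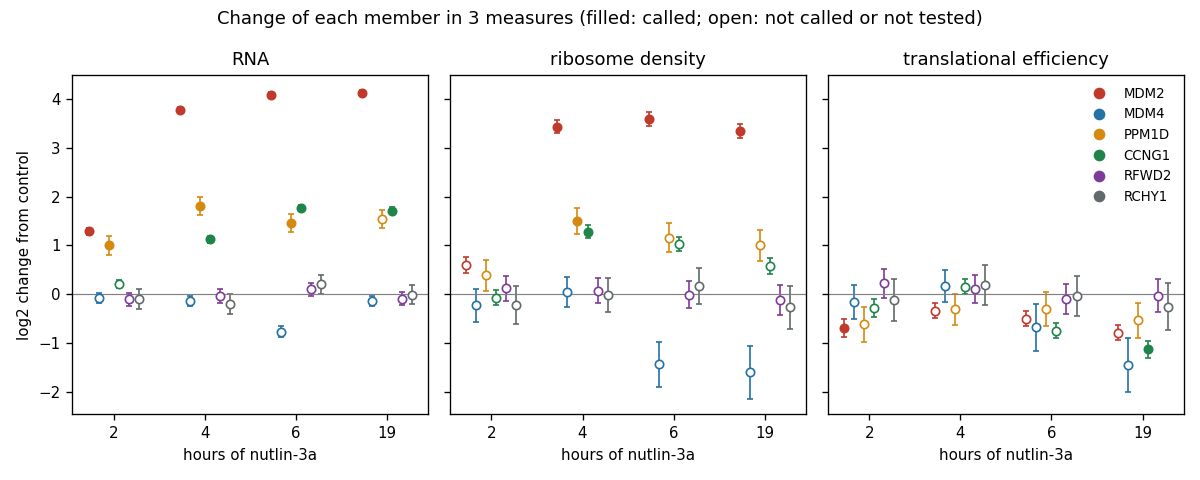
Log2 change from the control of each member in RNA (left), ribosome density (middle) and translational efficiency (right) at 2, 4, 6 and 19 h, without a floor on low values; bars are 95% counting intervals, filled points were called and open points were not called or not tested. MDM2 lies near 4 in RNA from 4 h on and lower in ribosome density, and the efficiency of MDM2, PPM1D and CCNG1 is below 0 at 19 h, as is that of MDM4.

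Translational efficiency (TE) is the log2 ratio of the Ribo-Seq to the RNA-Seq level, and a TE difference therefore holds the RNA difference with a negative sign. Against the control, the TE differences of the 3 members with risen RNA were below 0 at all times but 1. MDM2 was at -0.69, -0.33, -0.50 and -0.78 at 2, 4, 6 and 19 h, with counting SEs of 0.07 to 0.09. PPM1D was at -0.62, -0.31, -0.30 and -0.54, with SEs of 0.16 to 0.19. CCNG1 was at -0.28, 0.16, -0.74 and -1.13, with SEs of 0.08 to 0.09. The one difference above 0 was that of CCNG1 at 4 h, the time at which the median TE difference of all tested genes was 0.18, and the CCNG1 value was -0.02 with that median removed and -0.06 with upper-quartile scaling. With the 2 h library as baseline the sign of several turned. MDM2 was then at 0.36, 0.19 and -0.09 at 4, 6 and 19 h, and PPM1D at 0.31, 0.32 and 0.08. CCNG1 was at 0.43, -0.47 and -0.85, and was still called lower at 19 h. Against the control, the TE of MDM2 and PPM1D was already lower at 2 h. With 1 library per group, a TE lower from 2 h on and a deviating control library cannot be told apart. RFWD2, whose RNA was level, had TE differences between -0.10 and 0.22, each with a 95% counting interval that included 0.

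Of these TE differences, 2 passed the cut-off. At 2 h 1 of 4 tested members was called lower (MDM2), where 1.92% of all tested genes were, and at 19 h 1 of 4 (CCNG1), where 5.25% were. At 4 h and at 6 h 0 of 4 were called lower, against 0.741% and 3.01%. No tested member was called higher in TE, while 5.53%, 12.2%, 3.91% and 2.59% of all tested genes were at 2, 4, 6 and 19 h. The 12.2% at 4 h changed with the scaling of the libraries, with 857 genes called higher and 52 lower as deposited, but 307 and 233 after the median TE difference was set to 0. MDM2 at 19 h, at -0.78, was short of its cut-off of 0.82. TE differences rose with transcript length at 19 h, by 0.15 on the log2 scale per doubling of length, and with that trend removed, an alternative chosen after the data were seen, MDM2 was at -1.01 and was called lower, as was CCNG1 at 6 h, at -0.73. With a 2-fold threshold the call of MDM2 at 2 h was lost.

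Among genes whose RNA had at least doubled the same values can be placed. At 19 h there were 175 such tested genes, with a median TE difference of 0.04, and 13 of them had a lower TE difference than MDM2, 7 a lower one than CCNG1 and 30 a lower one than PPM1D. At 2 h there were 65, of which 2 were lower than MDM2, 5 lower than PPM1D and 12 lower than CCNG1. CCNG1 itself was not among these 65, since its RNA was at 1.16-fold at 2 h, so its place there is not like for like. At 4 h there were 99, with a median of 0.07, of which 21 were lower than MDM2, 24 lower than PPM1D and 59 lower than CCNG1, which stood above that median. At 6 h there were 123, of which 10 were lower than CCNG1, 21 lower than MDM2 and 31 lower than PPM1D. These places describe single libraries that share the control, with no test.

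TE levels themselves also differed between the members. In the control MDM2 had a log2 TE of -1.45, above 8.1% of the tested genes, while PPM1D, at -0.09, was above 58.6% of them. The median of all tested genes was -0.27. At 19 h MDM2 stood at -2.23, above 1.6% of the tested genes, and CCNG1 at -1.98, above 2.9%, from -0.85 and 24.0% in the control. By level, MDM2 at 19 h stood above 97.3% of the tested genes in RNA-Seq and above 83.2% in Ribo-Seq. The transcripts of MDM2 (7381 nt) and MDM4 (10073 nt) were longer than the median tested transcript (2601 nt). Ribo-Seq values were scaled to whole transcripts, and the part of length in these TE levels was not tested. The length used in such a scaling cancels in a difference from the control. Whether Ribo-Seq reads outside the coding part were counted is not known. In the study's read statistics their share differed between the nutlin-3a libraries, and such a shift would not cancel.

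**Figure D3:**
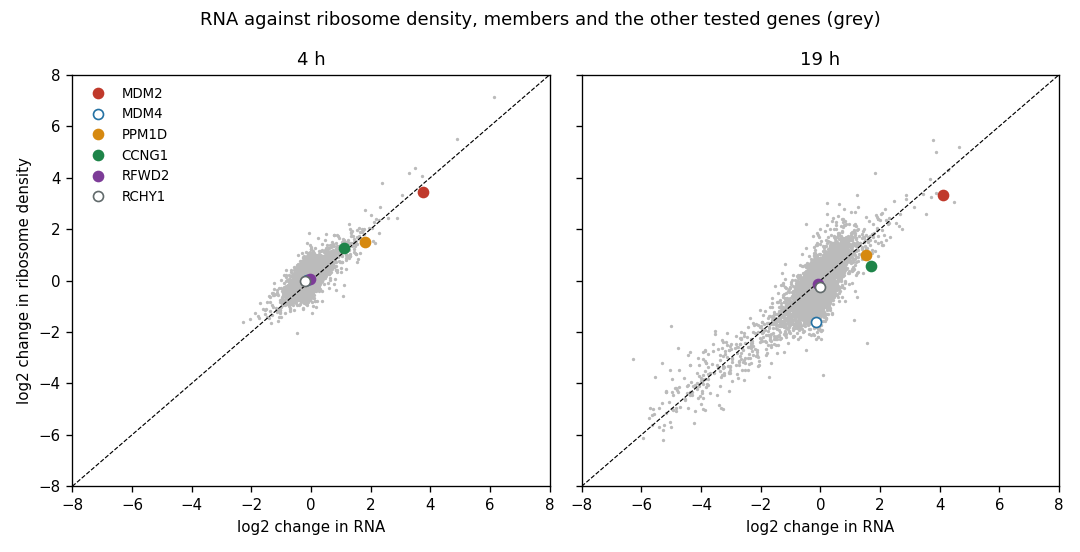
Log2 change in RNA (horizontal) against log2 change in ribosome density (vertical) at 4 h (left) and 19 h (right); grey points are the tested genes, filled circles the tested members, open circles MDM4 and RCHY1 without a floor, and the dashed line marks equal change. At 19 h MDM2, PPM1D and CCNG1 lie below the dashed line, by 0.78, 0.54 and 1.13.

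The tested genes with the pattern nearest to each risen member were found from the root mean square difference over the 8 log2 differences in RNA and ribosome density. For MDM2 they were CDKN1A (0.63), TP53INP1, FDXR, BBC3 and CYFIP2 (1.05). CDKN1A, which encodes the cyclin-dependent kinase inhibitor p21, matched MDM2 closely in RNA, with 1.63, 3.74, 4.13 and 4.26 at 2, 4, 6 and 19 h against 1.29, 3.77, 4.09 and 4.13 for MDM2. It differed in ribosome density, at 1.57, 4.06, 4.50 and 4.30 against 0.60, 3.44, 3.59 and 3.34. The nearest genes of PPM1D were POU2F2 (0.32), BLOC1S2, PDGFA, ZFPM1 and AMIGO2 (0.38). Those of CCNG1 were FBXO22 (0.26), DDB2, PSTPIP2, STOM and ABHD4 (0.35), where DDB2 is a DNA repair gene and p53 target. The distances of MDM2 were larger than those of the other 2 members, and its RNA difference at 19 h was above that of 99.9% of the tested genes. These likenesses rest on the same 8 comparisons, which share their control libraries.

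A reference list of 18 p53 targets, of which 16 were in both tables and tested, gives the scale of the response. In RNA 10, 16, 16 and 15 of the 16 were called higher at 2, 4, 6 and 19 h. Of all tested genes 3.55%, 3.66%, 1.72% and 1.68% were called higher at these times. The median log2 difference of the list was 2.60 at 19 h, against -0.07 over all tested genes. With the floor the largest was that of BTG2, an antiproliferative factor, at 4.66, and the smallest that of GADD45A, at 0.91. GDF15, a secreted factor, was at 0.245 FPKM in the control, under the floor, and at 14.8 at 19 h, so its floored difference of 3.89 is smaller than that of its levels. In ribosome density 7, 15, 12 and 10 of the 16 were called higher, against 4.99%, 6.49%, 2.55% and 1.92% of all tested genes. MDM2, at 4.13 in RNA at 19 h, was thus near the upper end of this list, and CCNG1 and PPM1D, at 1.71 and 1.54, were below its median. The list's median TE difference was 0.03 at 19 h and -0.06 at 2 h, with 0 of 16 genes called lower at 19 h and 2 of 16 at 2 h. Of all tested genes 5.25% were called lower in TE at 19 h and 1.92% at 2 h. At such a share, 0 of 16 at 19 h does not set the list apart from other genes. The reference genes were listed with earlier results of these data known, so their rise is no independent evidence.

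None of the other tested ubiquitin ligases and partners of p53 was called higher in RNA, where 1.68% to 3.66% of all tested genes were, depending on the time. Of 14 listed ubiquitin ligases and partners of p53, 10 were tested, and 0 were called higher at any time, with a median difference of -0.15 at 19 h. At such shares, 0 of 10 does not set these genes apart from other genes. The largest difference upward at 19 h was that of SYVN1 (synoviolin), at 0.54, which was not called. GTSE1, a microtubule-associated protein that moves p53 out of the nucleus, was the one gene called lower, at 4, 6 and 19 h. Its RNA was at 31.7 FPKM in the control, then 28.7 (2 h), 21.6 (4 h), 3.53 (6 h) and 0.617 (19 h), and the floored log2 difference at 19 h was -4.99 (SE 0.21). In ribosome density HUWE1 was called higher at 2 h (0.81) and STUB1 at 4 h (0.91), both ubiquitin ligases, and GTSE1 was called lower at 6 and 19 h. In TE HUWE1 was called higher at 2 and 6 h and STUB1 at 4 h, and SIAH1 was called lower at 6 h. Over all tested genes TE differences rose with transcript length at 2 and 6 h, by 0.10 and 0.17 per doubling of length. The part of length in these calls was not tested.

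The deubiquitinases of p53 or MDM2 did not pass the cut-off. Of 7 listed 6 were tested, USP7 among them, and 0 were called in RNA, ribosome density or TE at any time. At 19 h their RNA differences ran from -0.54 (USP10) to 0.26 (OTUD5), with a median of 0.11. The median over all tested genes was -0.07. Of all tested genes 0.741% to 12.2% were called in a given measure, time and direction. At such shares, 0 of 6 does not set the deubiquitinases apart from other genes.

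Of 10 listed inhibitors and binding partners of MDM2, 9 were tested, all but CDKN2A, and their median RNA difference at 19 h was -0.05. LATS2, a kinase that binds MDM2, was called higher in RNA at 2 h only, from 15.2 FPKM in the control to 27.6, and it stood at 17.9, 14.6 and 16.5 FPKM in the 3 later libraries. RASSF1 was called lower at 4, 6 and 19 h, from 38.1 FPKM in the control to 13.0 at 19 h (log2 -1.55, SE 0.07). The ribosomal proteins RPL5, RPL11 and RPL23, which bind and inhibit MDM2 when not built into ribosomes, were called lower in TE at 19 h, at -1.46, -1.58 and -1.38, and the first 2 also at 6 h. Of all tested genes 5.25% were called lower in TE at 19 h and 3.01% at 6 h. The study reports repressed translation of ribosomal proteins in general after nutlin-3a, so a lower TE is not particular to those that bind MDM2. RPL11 RNA was at 853 FPKM in the control and 858 at 19 h, while its Ribo-Seq level was 1431 and 481. In ribosome density LATS2 was called higher at 2 h, and 0 of the 9 were called lower at any time, where 1.31% to 5.43% of all tested genes were. Their median ribosome density still went down, with differences of -0.09, 0.09, -0.67 and -1.22 at 2, 4, 6 and 19 h. Over all tested genes these medians were 0.02, 0.10, -0.02 and -0.19.

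**Figure D4:**
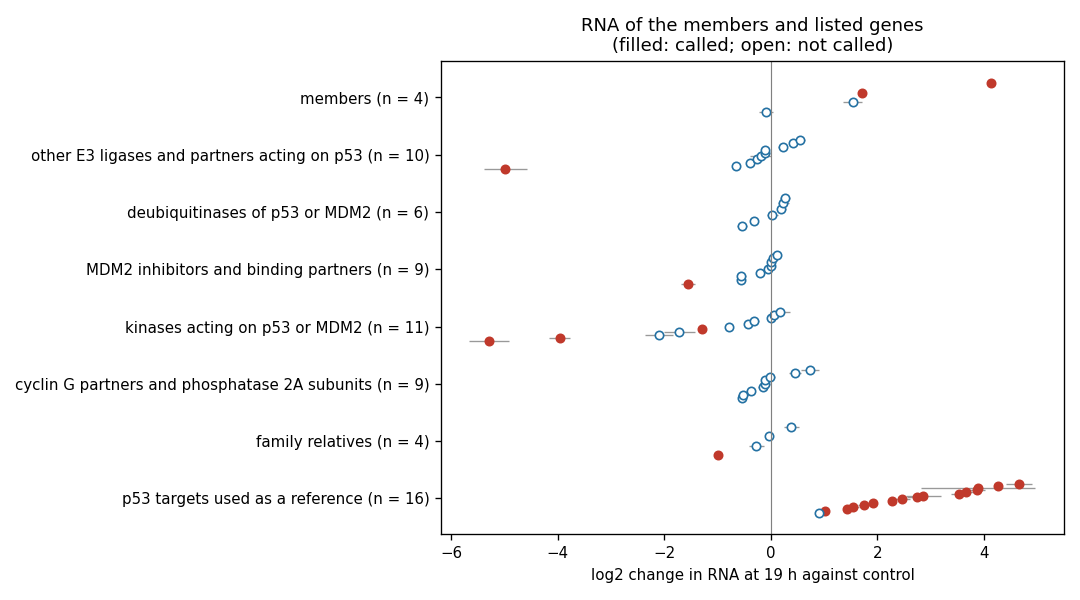
Log2 change in RNA at 19 h against the control (horizontal) of the tested members and of the tested genes of each list (rows, with their number); bars are 95% counting intervals, filled points were called and open points were not. The members MDM2, CCNG1 and PPM1D lie among the reference p53 targets, the deubiquitinases lie near 0, and GTSE1, PLK1 and AURKA (-3.96) lie lowest.

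Of 16 listed kinases that act on p53 or MDM2, 15 were in both tables and 11 were tested. In RNA 0, 1, 3 and 3 of the 11 were called lower at 2, 4, 6 and 19 h, and 0 were called higher, with a median of -0.78 at 19 h. Of all tested genes 0.998%, 3.34%, 4.70% and 5.02% were called lower at these times, and 1.68% to 3.66% higher. The listed kinases called were the mitotic kinases AURKA (4, 6 and 19 h) and PLK1 (6 and 19 h) and the DNA-dependent protein kinase PRKDC (6 and 19 h). PLK1 RNA went from 41.1 FPKM in the control to 1.05 at 19 h, a log2 difference of -5.29 (SE 0.19), and AURKA RNA from 49.6 to 3.18. Among those tested CDK5 had the largest difference upward at 19 h, at 0.17, and was not called. HIPK2 and ATM, under the filter in Ribo-Seq and not tested, were at 0.62 and 0.41. CHEK1, a checkpoint kinase and a substrate of PPM1D, was called lower in ribosome density and TE at 6 and 19 h, with a TE difference of -1.23 (SE 0.29) at 19 h. Its RNA was not called, but also went down, from 14.1 FPKM in the control to 3.29 at 19 h. CHEK2 RNA, not called either, went from 7.81 to 2.38 FPKM. PRKDC was called higher in TE at 2, 6 and 19 h. At these times TE differences of all tested genes rose with transcript length, by 0.10, 0.17 and 0.15 per doubling of length. The part of length in the PRKDC calls was not tested.

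Cyclin G1 acts through phosphatase 2A, and all 9 listed cyclin G partners and phosphatase 2A subunits were tested. In RNA 0 of 9 were called at any time, where 1.68% to 3.66% of all tested genes were called higher and 0.998% to 5.02% lower. The differences of the 9 at 19 h ran from -0.53 (PPP2CA, a catalytic subunit) to 0.74 (PPP2R5B, a regulatory subunit of the kind that binds cyclin G), with a median of -0.11. PPP2R5C, another such subunit, was called lower in ribosome density at 2 and 6 h and in TE at 6 and 19 h, its TE difference at 19 h being -1.19 (SE 0.13). In TE PPP2CA and PPP2R5B were called higher at 4 h, the time of the shift in all tested genes. CCNG1 had a called rise in RNA and these 9 genes had none, which at such shares does not set them apart from other genes.

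None of the tested relatives of the risen members was called higher in RNA, where 1.68% to 3.66% of all tested genes were, depending on the time. With only 4 tested, this does not set the relatives apart from other genes. Of 5 listed relatives 4 were tested, all phosphatases of the PPM family, and in RNA 1 was called, PPM1G, lower at 19 h at -0.99 (SE 0.04), from 72.0 to 36.2 FPKM. At that time 5.02% of all tested genes were called lower. The median of the 4 tested relatives at 19 h was -0.15. PPM1A, which had the largest difference upward at 19 h among the tested relatives (0.39), was called lower in TE at 2 and 6 h. CCNG2, the paralog of CCNG1, was under the filter in Ribo-Seq. Its RNA was at 5.84 FPKM in the control, then 5.13 (2 h), 6.09 (4 h), 9.54 (6 h) and 10.1 (19 h), a log2 difference of 0.79 (SE 0.06) at 19 h against 1.71 for CCNG1.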

How the data were processed

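RNA-Seq and Ribo-Seq of 10 libraries were used as the authors deposited them, as FPKM with 3 decimals per transcript. Per the study's methods and the labels, reads were aligned with Bowtie to hg19 transcripts, 1 isoform per gene, keeping uniquely mapped reads only, and isoforms of a gene were not told apart. The tables were assigned to the assays by their names, and histone mRNAs, which are not polyadenylated, were mostly below 1 FPKM in the one read as RNA-Seq. The methods describe coding reads in Ribo-Seq, but the same transcript length underlies both tables.

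The spacing of the FPKM values gave whole reads, transcript lengths and library totals, for 99.8% of the 11258 shared transcripts. The counting SE of a log2 difference is the square root of the summed reciprocals of the reads, divided by the natural log of 2. It does not cover PCR copies or the spread between cultures. Sequencing runs were a source of batch differences in the study, and which libraries shared a run is not given in the labels. Up to 13.8% of Ribo-Seq reads fell on 2 transcripts, 1 of which differed widely between libraries, which bears on the scaling of all other genes.

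Values were floored at 1 FPKM, log2 ratios were taken to the control of the same assay, and the call rule of 1 3/4 local SDs was applied to 7015 genes. No p-value was computed, since each group held 1 library. All members were named, with the 5 genes nearest to each member called in RNA at 2 or more times, and in each list the genes with the largest rise and fall in RNA at 19 h and those called at 3 or more times in RNA. Other list genes were named after their values were seen, for their calls in ribosome density or TE. The members and lists were chosen with earlier results of these data known, and 1 listed gene is not reported here. The scripts (Python 3.11.15, numpy 2.4.6, pandas 2.3.3) were tested on simulated data. Alternatives in floor, filter, scaling, baseline, window and call rule were run, and 2 were added after the data were seen (no floor, and length trend removed).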

Additional observations from a re-analysis of the deposited data

How the results depend on the processing

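MDM2, PPM1D and CCNG1 were all called higher in RNA at 4 h under 11 of 12 alternatives, the exception being the filter that removes PPM1D. No paired analysis was possible because each group holds 1 library. Without replicates, no value here says how far another culture would differ. A mean of at least 20 FPKM in each assay left 2 members, MDM2 and CCNG1, to test. With that filter 1 member was called in RNA at 2 h, and MDM2 lost its call in ribosome density at 19 h, leaving 0. With the 2 h library as baseline, 2 members were called in ribosome density at 6 h, and PPM1D lost its RNA call at 6 h, at 0.46 against 1.46, leaving 2 members called in RNA. With at least 2-fold, 3 and 2 members were called in ribosome density at 6 and 19 h and 0 in TE at 2 h. With a pseudocount of 1 FPKM, 2 were called in TE at 19 h, and with a floor of 5 FPKM 2 in TE at 2 h. Upper-quartile scaling, and SDs taken around the local mean, each called 1 member in TE at 4 h (MDM2) and 1 at 6 h (CCNG1). With the length trend removed, 1 was called in TE at 6 h and 2 at 19 h. CCNG1 at 2 h was called higher in RNA after the median was removed, at 0.26, and with SDs taken around the local mean, at 0.21. The causes were not tested, apart from the members that the filter removed. No difference of a member called with the main settings changed its sign. Those of MDM2 and PPM1D in TE that turned positive with the 2 h baseline were not among those called with the main settings. That of MDM2 at 4 h was called lower under 2 alternatives.

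Over all tested genes, removing the median moved the share of calls that were higher in RNA from 78.1% to 88.9% (2 h) and from 52.3% to 65.4% (4 h). In ribosome density it moved at 4 h from 83.2% to 65.3%, or 50.6% with upper-quartile scaling, and at 19 h from 26.2% to 40.7%, or 36.4%. At 2 h upper-quartile scaling alone moved it, from 76.1% to 64.4%. In TE it moved at 2 h from 74.2% to 63.2%, or 56.9%, at 4 h from 94.3% to 56.9%, or 43.7%, and at 19 h from 33.1% to 45.7%, while upper-quartile scaling moved it at 6 h from 56.5% to 44.4%. A 2-fold threshold called 66 genes in RNA at 2 h against 319, and 1481 in ribosome density at 19 h against 516. For MDM4 and RCHY1 the 33 and 65 Ribo-Seq reads at 19 h limit what can be seen.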
